A study of Homo sapiens with 6 samples.

Results

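The enzymes described here supply NADPH or belong to the pentose phosphate pathway, except ME2, a malic enzyme that works mainly with NAD. They are IDH1, IDH2, ME1, ME2, PGLS, PGD, TKT, TALDO1 and NNT, 9 of the 20046 genes that the annotation of the array names. All 15 probes that carry one of these symbols were taken. The members were chosen by the log2 difference between siGRAMD1B and siControl arrays, which was already known, so their values in this contrast are a description and carry no test.

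The arrays hold RNA of HeyA8-MDR, a multidrug-resistant line derived from the human ovarian cancer line HeyA8. The cells had received either a control siRNA (siControl, replicates 1, 2 and 4) or an siRNA against GRAMD1B (siGRAMD1B, replicates 2, 3 and 4), and GRAMD1B encodes a sterol carrier of the endoplasmic reticulum membrane. Both groups share the line and its drug-resistant background, each group had 3 arrays, and neither dose nor time after transfection is stated in the labels. All cells come from 1 line, and the labels do not tell whether the arrays of a group were separate cultures. Any p-value therefore reflects array-to-array spread alone, possibly of technical origin.

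The single GRAMD1B probe read 6.42, 6.41 and 6.57 in siControl and 6.26, 6.23 and 6.17 in siGRAMD1B (normalized log2 intensity). It was lower in every siGRAMD1B array, but dim in both groups, and its log2 difference of -0.25 ± 0.10 (SE) did not pass over all probes (limma adjusted p = 0.15). Median intensities of the arrays ran from 102.7 to 128.8 before normalization. The carcinoma markers PAX8 and KRT8 and the mesenchymal marker VIM lay at the 92.3rd, 95.8th and 99.97th percentiles of all probes. KRT18 and WT1 lay at the 80.4th and 69.6th, whereas EPCAM, KRT19, MUC16 and CDH1 lay at the 57.7th, 27.2nd, 31.6th and 7.77th. The leukocyte markers PTPRC, CD3E and CD14 lay at the 43.8th, 11.7th and 65.8th percentiles and CD68, a lysosomal protein gene, at the 96.5th. Among endothelial markers CDH5 lay at the 89.6th percentile and VWF and PECAM1 at the 56.8th and 50.8th, and the fibroblast markers COL1A1, DCN and PDGFRB lay at the 61.7th, 50.5th and 1.91st. CD68 (mean log2 intensity 11.40 in siControl and 11.78 in siGRAMD1B) and VWF (6.12 and 6.50) were the markers of other cell types called higher, and 0 were called lower. The multidrug resistance gene ABCB1, at the 97.0th percentile, was also called higher (11.52 and 12.12), with overlapping groups. The part of these markers in the results was not tested.

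NADPH is the reductant that cells spend on fatty acid and sterol synthesis and on keeping glutathione and thioredoxin reduced. In the cytosol it comes from the oxidative branch of the pentose phosphate pathway, from the NADP-dependent isocitrate dehydrogenase IDH1 and from malic enzyme 1, and in mitochondria from IDH2 and from the transhydrogenase NNT, among other enzymes. The non-oxidative branch, with transketolase and transaldolase, makes no NADPH and exchanges carbon between pentose phosphates and glycolysis.

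The enzymes did not move as a block. Signals of IDH1 and PGD were lower in siGRAMD1B by 0.78 to 1.15 on the log2 scale at their 3 probes, the signal of ME1 was higher by 0.49, and TALDO1 and IDH2 differed by less than 0.05 at their tested probes. Of the 15 probes, 13 passed the filter on dim probes. The limma fit over all probes called 4 of these 13 lower (both IDH1 probes, PGD and a ME2 probe) and 1 higher (ME1). Among all 28338 tested probes it called 7.11%, with 3.22% lower and 3.89% higher, or 913 and 1103 probes. With a smaller background offset of 16 these were 235 lower and 455 higher. The groups did not overlap at 6 of the 13 probes, 4 lower and 2 higher, against 24.1% of all tested probes, with 11.8% lower and 12.3% higher. Because the same difference guided the choice of the enzymes, nothing is read from these counts. In RNA of a whole culture, fewer cells with the transcript and less transcript per cell cannot be told apart.

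**Figure D1:**
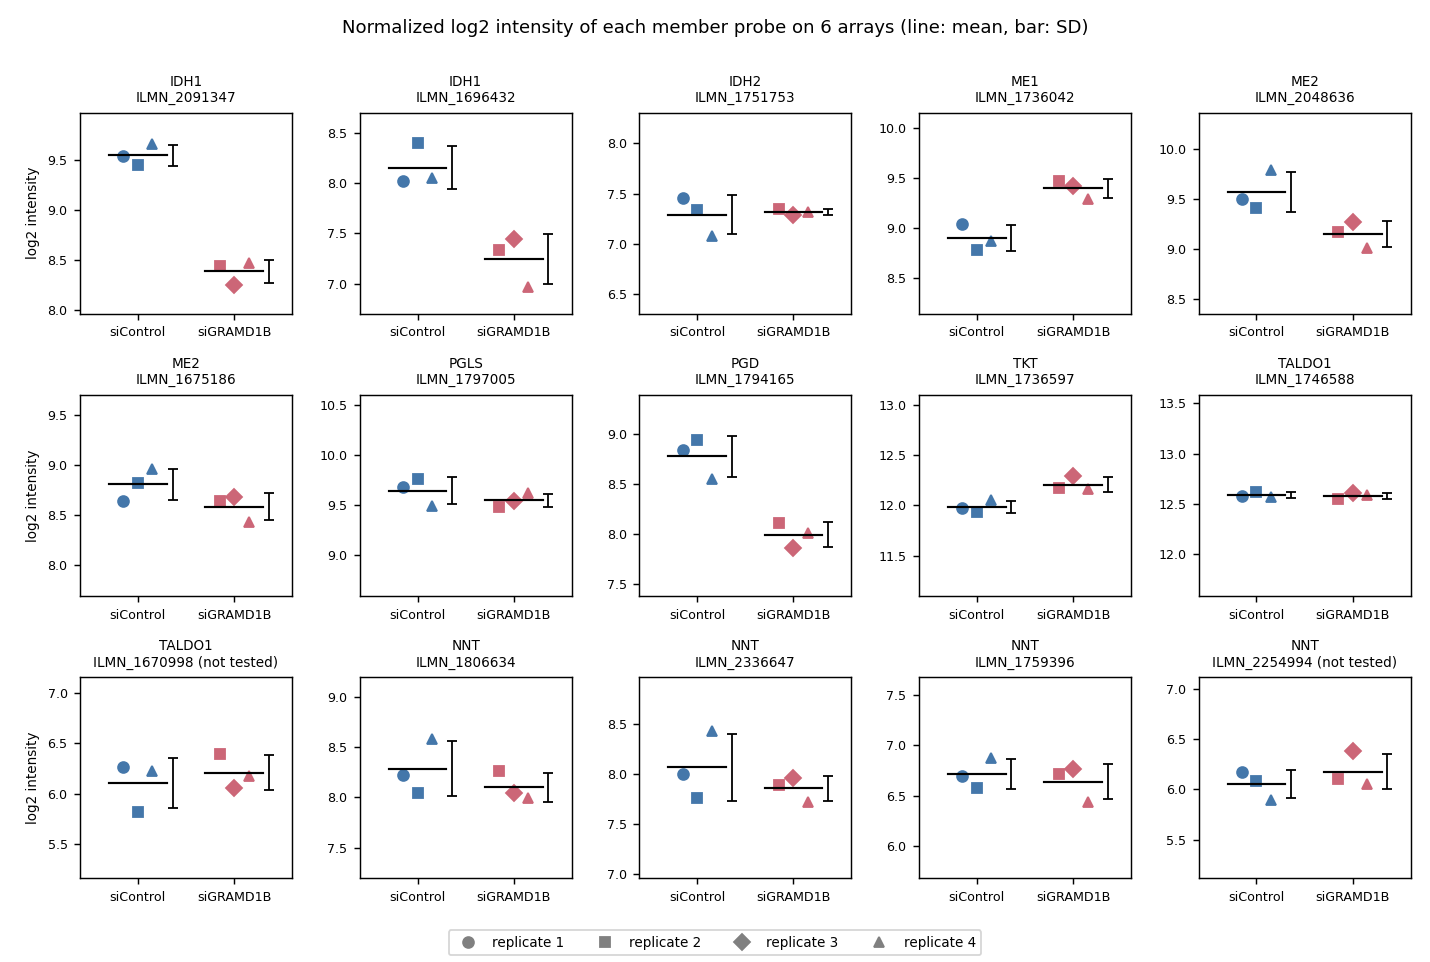
Normalized log2 intensity (vertical axis, each panel spanning 2 log2 units) of the 15 probes on the 3 siControl arrays (blue) and 3 siGRAMD1B arrays (red), with marker shapes for the replicate numbers, lines at the group means and bars for the SD. The groups are fully apart at both IDH1 probes, PGD, ME1, TKT and the brighter ME2 probe, and overlap at the other panels.

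Promoters are shown for the 3 genes whose window holds the core of the antioxidant response element, TGACNNNGC. This motif was chosen with the differences known. That element binds NRF2, a transcription factor known to drive NADPH-producing enzymes. RefSeq (GRCh38.p14) gave 11 windows for the 9 genes, each from 250 bases before to 50 after a transcript start, with a pair of windows for IDH1 and for NNT. Capitals mark the matches, searched on both strands. The windows lie at chr2:208255022-208255321 on the minus strand for IDH1, at chr1:10398814-10399113 on the plus strand for PGD and at chr6:83431002-83431301 on the minus strand for ME1.
IDH1: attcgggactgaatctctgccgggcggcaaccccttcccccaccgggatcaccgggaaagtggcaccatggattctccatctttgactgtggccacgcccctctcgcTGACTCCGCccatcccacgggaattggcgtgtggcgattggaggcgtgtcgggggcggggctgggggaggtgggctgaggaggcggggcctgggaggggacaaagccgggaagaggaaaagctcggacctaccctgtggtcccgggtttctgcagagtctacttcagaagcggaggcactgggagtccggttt
PGD: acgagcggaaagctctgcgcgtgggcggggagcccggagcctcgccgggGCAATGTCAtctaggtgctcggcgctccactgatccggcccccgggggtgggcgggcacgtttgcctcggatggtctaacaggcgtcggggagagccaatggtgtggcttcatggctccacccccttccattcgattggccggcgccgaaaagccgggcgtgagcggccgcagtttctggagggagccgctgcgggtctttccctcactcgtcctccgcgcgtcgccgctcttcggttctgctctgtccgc
ME1: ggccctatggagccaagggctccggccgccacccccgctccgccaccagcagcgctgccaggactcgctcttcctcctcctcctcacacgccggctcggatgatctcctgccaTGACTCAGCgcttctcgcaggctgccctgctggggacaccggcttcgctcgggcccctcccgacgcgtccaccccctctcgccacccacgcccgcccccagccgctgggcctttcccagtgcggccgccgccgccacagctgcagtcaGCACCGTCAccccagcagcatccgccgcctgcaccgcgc

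In the IDH1 window the match begins 143 bases before the start, and the other IDH1 window, chr2:208254409-208254708, holds none. The PGD match begins 201 bases before the start and reads on the opposite strand. ME1 has a match that begins 137 bases before the start and overlaps the AP-1 motif TGANTCA, and another on the opposite strand 11 bases after the start. The core was present in 3 of the 11 windows and in 13.3% of 35116 promoter windows of the same length. Besides the ME1 match, TGANTCA was absent from the members' windows (7.71% of all windows hold it), and the E-box CACGTG stood in 1 NNT window (7.26% of all). Matching letters describe the sequence and do not show a bound site. The genes that share the core had differences of opposite sign, and whether NRF2 has a part in them was not tested.

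IDH1, which converts isocitrate to 2-oxoglutarate in cytosol and peroxisomes, had the largest difference of the set. At its brighter probe (ILMN_2091347) the normalized log2 intensity was 9.54, 9.44 and 9.65 in siControl and 8.44, 8.26 and 8.47 on the siGRAMD1B arrays. The highest siGRAMD1B array lay 0.98 below the lowest siControl array. Before normalization the probe had intensities of 687, 737 and 944 in siControl against 402, 394 and 348 in siGRAMD1B. The groups were thus apart on that scale too. The group means were 9.54 ± 0.10 and 8.39 ± 0.12 (SD, n = 3), a log2 difference of -1.15 ± 0.10 (SE) or 2.23-fold lower in siGRAMD1B. Among all tested probes 6 had a lower difference.

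The other IDH1 probe (ILMN_1696432) read 8.02, 8.40 and 8.05 in siControl and 7.33, 7.44 and 6.97 in siGRAMD1B. Its groups were again fully apart, by 0.57, with more spread than at the brighter probe. Its means of 8.15 ± 0.21 and 7.25 ± 0.25 (SD, n = 3) differed by -0.91 ± 0.13 (SE), or 1.87-fold. The arrays that were highest and lowest differed between the probes, with siControl replicate 4 highest at the brighter probe and siControl replicate 2 at the dimmer. Both probes were called lower under all 14 alternatives. Over these the difference ran from -1.24 to -1.07 at the brighter probe and from -1.09 to -0.74 at the dimmer. For every member, the alternatives reuse the same arrays and the contrast that guided the choice. They describe the dependence on processing and on single arrays, and are no further support.

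IDH2, the mitochondrial NADP-dependent counterpart, showed no such difference at its probe. Its siControl arrays read 7.46, 7.34 and 7.08 (log2 intensity) and the siGRAMD1B arrays 7.35, 7.29 and 7.32. All siGRAMD1B values fell inside the siControl range, and the log2 difference was 0.028 ± 0.11 (SE). The deposited intensities of 180 to 222 lay less than 2-fold above the array medians, so the probe was dim and its scale compressed.

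The malic enzymes, which decarboxylate malate to pyruvate, differed in opposite directions. ME1 is cytosolic and makes NADPH, whereas ME2 is mitochondrial and works mainly with NAD. ME1 (ILMN_1736042) read 9.04, 8.79 and 8.87 in siControl and 9.47, 9.42 and 9.29 on the siGRAMD1B arrays. The lowest siGRAMD1B array lay 0.25 above the highest siControl array. Means of 8.90 ± 0.13 and 9.40 ± 0.10 (SD, n = 3) gave a log2 difference of 0.49 ± 0.10 (SE), or 1.41-fold higher. Deposited intensities were 494, 482 and 567 against 775, 825 and 581, where siGRAMD1B replicate 4 was close to the highest control. The ME1 call was lost with the background offset of 16, although its difference there was 0.53.

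The brighter ME2 probe (ILMN_2048636) read 9.50, 9.41 and 9.79 in siControl and 9.16, 9.27 and 9.01 on the siGRAMD1B arrays. The groups were apart by 0.14, and siControl replicate 4 stood above the other controls. The log2 difference was -0.42 ± 0.11 (SE, n = 3 per group). This call was lost in 6 of 14 alternatives. The difference was -0.45 without siControl replicate 1, -0.30 without siControl replicate 4, -0.43 without siGRAMD1B replicate 2 and -0.35 without siGRAMD1B replicate 4, and it was -0.42 with median centring and -0.44 with the offset of 16. The dimmer ME2 probe (ILMN_1675186) read 8.64, 8.82 and 8.95 in siControl and 8.64, 8.68 and 8.43 in siGRAMD1B, so its groups overlapped. Its log2 difference of -0.22 ± 0.11 (SE) was not called and kept its sign under all 14 alternatives.

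**Figure D2:**
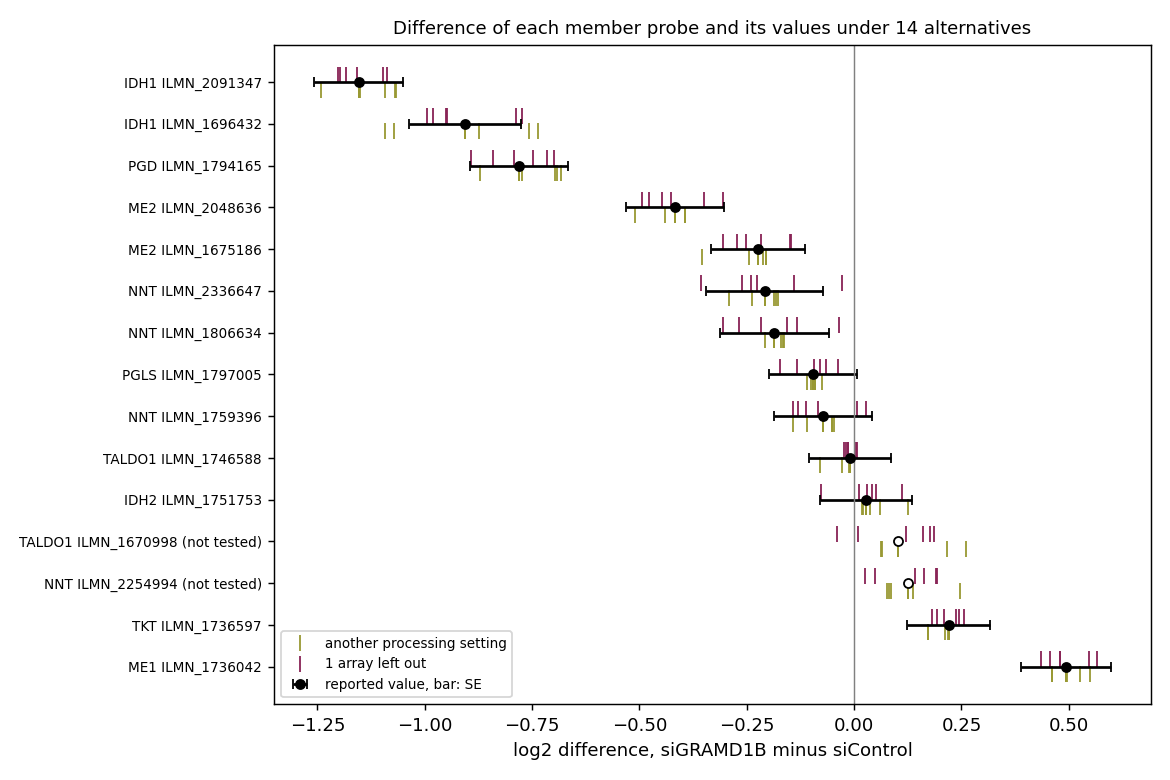
Log2 difference, siGRAMD1B minus siControl (horizontal axis), of each of the 15 probes, with the SE for the 13 tested probes, ticks above each point for the 6 values with 1 array left out and ticks below it for the 8 other settings. Both IDH1 probes and PGD stay at or below -0.68 and ME1 at or above 0.44 throughout, and the TALDO1 and IDH2 probes have values on both sides of 0.

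In the oxidative branch, PGLS hydrolyses 6-phosphogluconolactone and PGD oxidises 6-phosphogluconate to ribulose 5-phosphate with release of NADPH. PGD (ILMN_1794165) read 8.84, 8.94 and 8.55 in siControl and 8.11, 7.86 and 8.01 on the siGRAMD1B arrays. The groups were apart by 0.44. Means of 8.77 ± 0.20 and 7.99 ± 0.12 (SD, n = 3) differed by -0.78 ± 0.11 (SE), or 1.72-fold, and the deposited intensities were 435, 531 and 459 against 329, 310 and 264. The PGD probe was called under all 14 alternatives, with differences from -0.89 to -0.68. PGLS (ILMN_1797005), the step just before it, read 9.68, 9.76 and 9.49 in siControl and 9.48, 9.54 and 9.62 on the siGRAMD1B arrays. These groups overlapped, with a log2 difference of -0.096 ± 0.10 (SE).

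The enzymes of the non-oxidative branch were both bright and differed little. TKT, the transketolase that moves carbon units between sugar phosphates, read 11.97, 11.93 and 12.05 in siControl and 12.17, 12.29 and 12.16 in siGRAMD1B. All siGRAMD1B arrays were above all siControl arrays, by 0.11, but the log2 difference of 0.22 ± 0.10 (SE) was not called and stayed between 0.17 and 0.26 over the alternatives. TALDO1, the transaldolase, had a bright probe (ILMN_1746588) with 12.58, 12.62 and 12.57 in siControl and 12.54, 12.60 and 12.58 in siGRAMD1B. Its spread was small, with an SD of 0.026 and 0.031 in the groups and a difference of -0.0097 ± 0.095 (SE). The other TALDO1 probe (ILMN_1670998) was under the filter, at the 39.7th percentile, with values between 5.82 and 6.40.

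NNT, which uses the proton gradient of the inner mitochondrial membrane to reduce NADP with NADH, has 4 probes. The brightest (ILMN_1806634) read 8.23, 8.05 and 8.58 in siControl and 8.26, 8.04 and 7.99 on the siGRAMD1B arrays. The next (ILMN_2336647) read 8.00, 7.76 and 8.42 against 7.89, 7.96 and 7.72, and the third (ILMN_1759396) 6.69, 6.57 and 6.87 against 6.72, 6.76 and 6.44. At each of these probes the groups overlapped, siControl replicate 4 was the highest array and siGRAMD1B replicate 4 the lowest. Their log2 differences were -0.19 ± 0.13, -0.21 ± 0.14 and -0.072 ± 0.11 (SE), none of them called. The first pair of differences turned on single control arrays: they became -0.036 and -0.028 without siControl replicate 4, and -0.31 and -0.36 without siControl replicate 2, where neither was called. The fourth probe (ILMN_2254994) was under the filter, at the 31.8th percentile, and there siControl replicate 4 was the lowest array. The same control array was also the highest of all 6 at both ME2 probes.

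**Figure D3:**
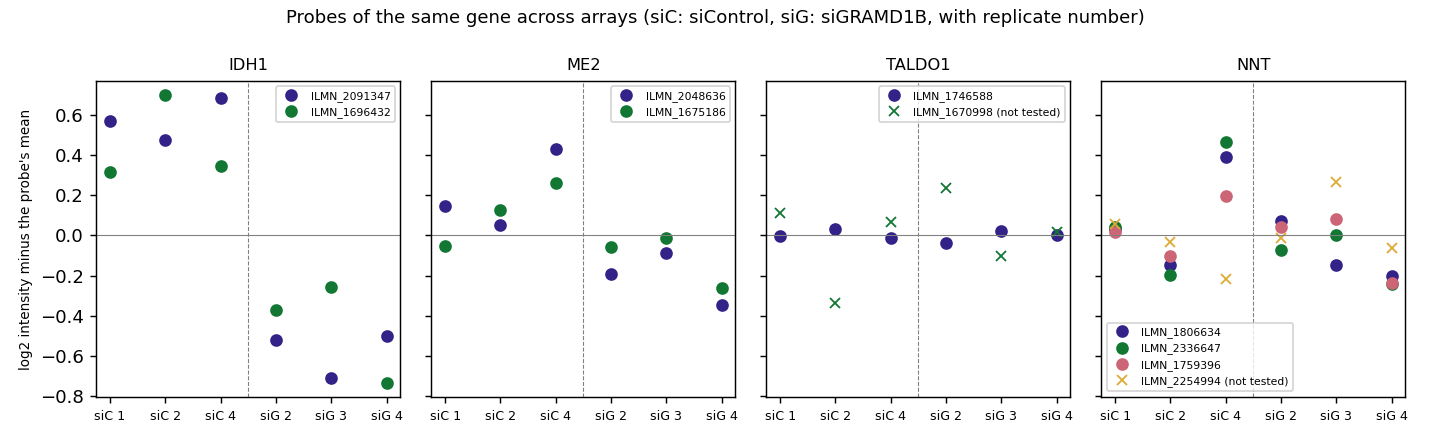
Log2 intensity minus the probe's own mean (vertical axis) on each array (horizontal axis) for the 4 genes with more than 1 probe, with crosses for the probes under the filter. The IDH1 probes separate the groups alike, and siControl replicate 4 is the highest array at both ME2 probes and at the 3 tested NNT probes.

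Across the 6 arrays, the PGD probe was the member closest to the brighter IDH1 probe, with a root mean square distance of 0.26 log2 units after each probe was centred on its mean. The brighter ME2 probe followed at 0.40, and ME1 was farthest at 0.83. Of all other named genes, the 5 closest were TMEM250 (0.084), ANAPC11 (0.097), PFKM (0.11), ZNHIT6 (0.12) and DCTPP1 (0.12). PFKM encodes the muscle-type phosphofructokinase and ANAPC11 a subunit of the ubiquitin ligase that drives exit from mitosis. PFKM read 10.25, 9.91 and 10.33 in siControl and 9.11, 9.08 and 9.03 in siGRAMD1B. With 2 groups of 3 arrays, this likeness mainly reflects the size of the difference between the groups.

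Genes around these enzymes were mostly not called. A list of other NADPH sources, pentose and ribose steps, NAD kinases, NAD-dependent isocitrate dehydrogenase subunits, adjacent reactions, NADPH-consuming enzymes and regulators held 39 genes with a named probe, 38 of them tested. Of these, 0 were called higher and 1 lower (limma, adjusted p under 0.05), where 5.72% of all tested genes were called higher and 3.74% lower by their brightest probe. At an unadjusted p under 0.05, 4 of the 38 were higher and 4 lower, where 13.4% of all tested genes were higher and 9.97% lower at that level. The counts at an unadjusted p given for the single lists below are to be read against these shares. The groups did not overlap for 10 of the 38, against 28.4% of all tested genes by their brightest probe. The median log2 difference of the 38 was -0.028, against 0.0090 over all tested genes.

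The called gene was TXNRD2, the mitochondrial thioredoxin reductase, which spends NADPH. Its brighter probe read 11.70, 11.76 and 11.58 in siControl and 11.25, 10.96 and 10.94 on the siGRAMD1B arrays. The groups were fully apart and the log2 difference was -0.63 ± 0.11 (SE, n = 3 per group, limma adjusted p = 0.0012). TXNRD2 passed under all 14 alternatives, with adjusted p from 0.00019 to 0.037. A second TXNRD2 probe was under the filter, at means of 6.15 and 6.14. Among the other 5 measured NADPH consumers, the cytosolic thioredoxin reductase gene TXNRD1 differed by -0.20 at its brightest probe and by -0.32 at another, with adjusted p of 0.46 and 0.065 (limma). The fatty acid synthase gene FASN differed by -0.024 and the glutathione reductase gene GSR by -0.11.

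Of 7 other measured genes listed as NADPH sources, 0 were called in either direction. At an unadjusted p under 0.05, 1 was higher and 1 lower. That list, which includes MTHFD2, is not limited to enzymes that work mainly with NADP. The differences ran from -0.32 for MTHFD2, the mitochondrial folate dehydrogenase, to 0.25 for H6PD, which starts the pentose phosphate route inside the endoplasmic reticulum. That H6PD probe was dim, at the 72.2nd percentile, and its groups were apart by only 0.013. Another H6PD probe was under the filter, with a difference of 0.036. The third malic enzyme gene, ME3, which is mitochondrial and NADP-dependent, had a difference of 0.19 ± 0.095 (SE, limma adjusted p = 0.28). Of 9 pentose and ribose genes 0 were called and 1, H6PD, was higher at an unadjusted p under 0.05. Their median was 0.12. The isomerase gene RPIA, which acts on the product of PGD, differed by 0.12, and RPE, the epimerase that acts on the same product, by -0.14.

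The 3 genes of the NAD-dependent isocitrate dehydrogenase differed by 0.038 (IDH3A), -0.16 (IDH3B) and -0.17 (IDH3G), and 0 were called, also at an unadjusted p under 0.05. Among 8 adjacent reactions 0 were called, and 2 were higher and 1 lower at an unadjusted p under 0.05. The extremes were ACO1, the cytosolic aconitase that makes isocitrate, at 0.26, and D2HGDH, which oxidises D-2-hydroxyglutarate, at -0.27. The NAD kinase genes NADK and NADK2, which make NADP, differed by 0.069 and -0.17, and 0 were called by limma, also at an unadjusted p under 0.05. Of the 4 regulators 0 were called, and at an unadjusted p under 0.05 KEAP1 was higher and TIGAR lower. KEAP1, the adaptor that marks NRF2 for degradation, differed by 0.26 ± 0.095 at its brightest probe (SE, limma adjusted p = 0.11). At another tested KEAP1 probe the groups overlapped, with a difference of 0.19 (limma adjusted p = 0.43). NFE2L2, the NRF2 gene itself, differed by -0.15 ± 0.096 (SE, limma adjusted p = 0.44).

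**Figure D4:**
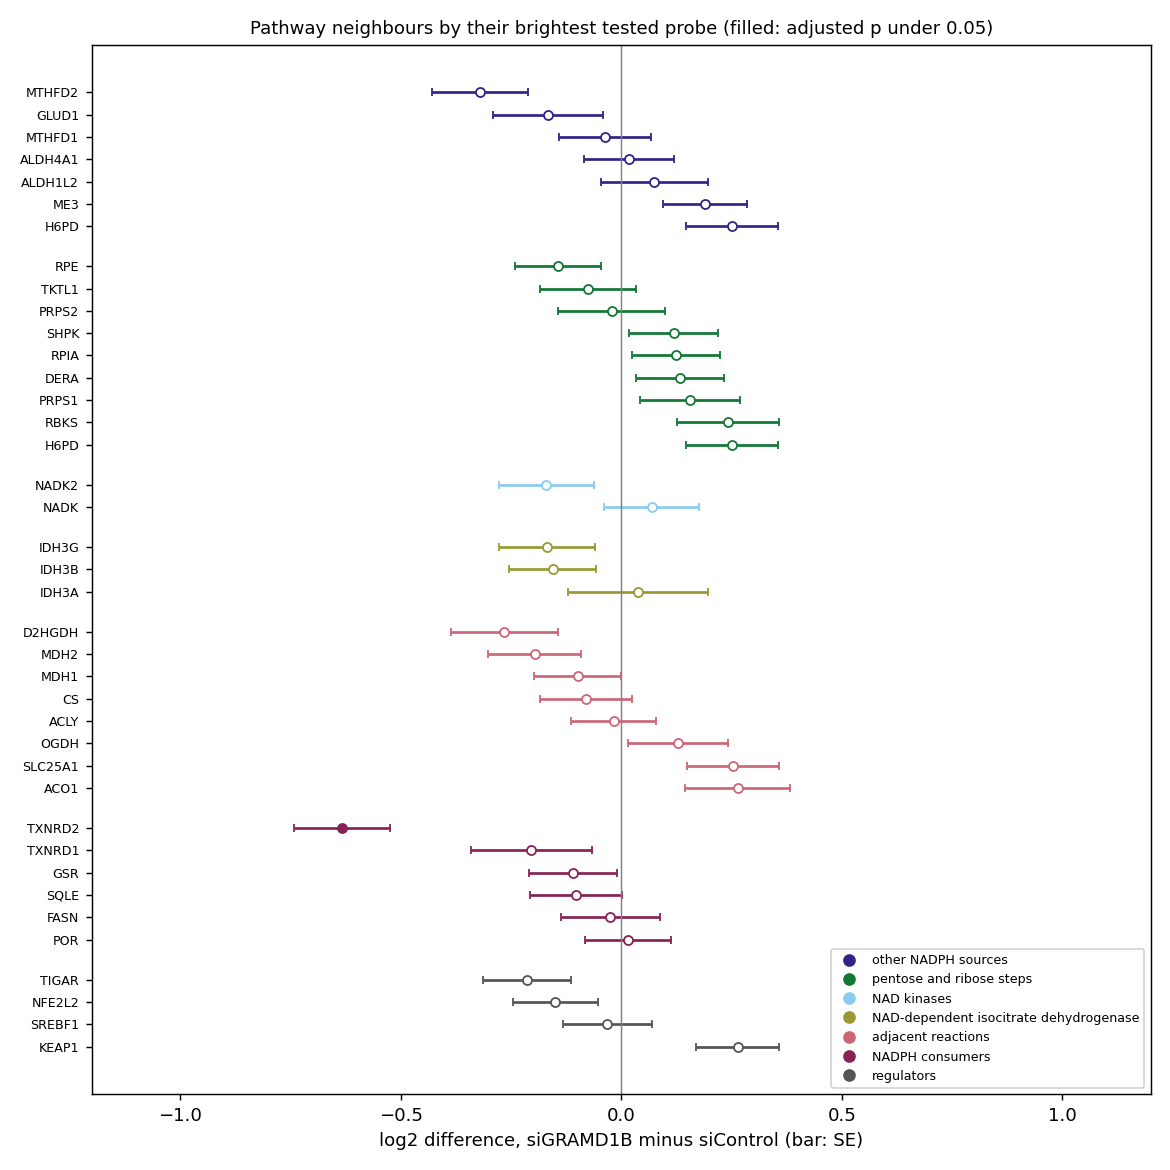
Log2 difference, siGRAMD1B minus siControl (horizontal axis, bar for the SE), of the 38 tested neighbouring genes by their brightest tested probe, coloured by list, with H6PD shown in both of its lists. TXNRD2 at -0.63 is the only filled point, and the other genes lie between -0.32 and 0.26.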

How the data were processed

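Total RNA of 6 HeyA8-MDR samples was amplified to biotin-labelled cRNA and read on Illumina bead arrays, per the labels' protocols. The intensity values deposited by the authors are linear, unnormalized signals of 47231 probes, and BeadStudio is the export tool that the submitters' processing notes name (version not given in the sources used here). Their header has 1 name too many, so each array's values were read 1 field to the left of its name. The same array in the deposited log2 values, which the authors normalized by a method not given in the sources used here, had the same probe order (Spearman's rho 1.00, against at most 0.854 for another array). No columns were left unmapped (0).

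The intensities were corrected with limma 3.58.1 in R 4.3.3 (normexp, offset 50), quantile normalized and put on the log2 scale. Fold changes are on that scale, which understates changes of dim probes. Those with a mean over 6.16, the 40th percentile, were tested, 28338 in all, with lmFit and eBayes (2-sided, moderated on 17.9 degrees of freedom), with Benjamini-Hochberg adjustment across these probes and a threshold of 0.05. The procedure was tested on simulated data.

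Gene names came from the platform annotation (30113 probes with 1 symbol, 8 with several, 17110 unnamed here), promoter windows from RefSeq. The members, the pathway lists, the motifs and the alternatives were chosen with earlier results of these data known. The 9 members are therefore described without a test of their own, and the calls of the fit over all probes are only counted. By plan, genes outside the members were named if they passed the threshold in a pathway list, or were among the 5 closest to IDH1 across arrays. GRAMD1B as the target and the cell type markers were also planned. All other listed genes that are named were picked after their values were seen. These include extremes of a list and genes called only under an alternative. A listed gene was represented by its brightest tested probe. A block for slide was not run, since no slide is given in the files used here.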

Additional observations from a re-analysis of the deposited data

How the results depend on the processing

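Each value was recomputed under 14 alternatives. Over all probes, 1103 were called higher and 913 lower. With the background offset of 16 the counts were 455 and 235, with median centring 603 and 419, and with the replicate number as a block 574 and 411. With 1 array left out they ran from 671 to 1157 higher and from 450 to 1039 lower. Of the member probes, 1 was called higher and 4 lower; the offset of 16 left 0 higher and 3 lower, and with 1 array left out 3 or 4 were lower and 1 higher. No called member probe changed sign. In the pathway lists, 0 genes were called higher and 1 lower. Without background correction and with the deposited normalized values, 1 was higher (KEAP1) and 2 lower (TXNRD2 and MTHFD2). Leaving out siControl replicate 2 called 0 higher and 2 lower (MTHFD2 besides TXNRD2), and leaving out siControl replicate 4 called 1 higher (ACO1, 0.39). Over all arrays left out in turn the lists had 0 to 1 higher and 1 to 2 lower. The cause of these shifts was not tested. The groups share only the numbers 2 and 4, whose deviations correlated at 0.025 and -0.15 across probes. For unlike numbers the correlations ran from -0.18 to 0.19. The numbers therefore do not show pairing, and so few arrays cannot exclude it. The replicate block changed no call among the members or the listed genes. In that fit the arrays numbered 1 and 3, each without a partner in the other group, do not inform the difference. It rests on the arrays numbered 2 and 4 alone and leans on variance shared across probes, so the unchanged calls say little. The number of arrays, 3 a group, limits every value, and the IDH2 probe and the dimmer probes of TALDO1 and NNT lay close to the background.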
